A study of Mus musculus with 2 samples.

Results

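The cells described here are the macrophages that the authors' deposited cell table places in cluster 51, taken from tumours of mice given antibodies against the costimulatory receptor GITR. A cell was a member if its table entry carried the cell type Macrophages and the cluster number 51 and if its barcode held at least 1000 unique molecular identifiers (UMIs) of mouse genes. There were 82 such cells among the 8716 cells of the library that could be assigned to a mouse, and the other 4022 macrophages of the same mice served for comparison. The 4104 macrophages fell into 24 clusters, of which cluster 51 ranked 21 by number of cells.

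Macrophages arise in tumours largely from blood monocytes and take up dead cells, antibody-coated cells and lipid. Engulfed material is broken down in the lysosome by cathepsins and lipid hydrolases, its sterols are handled under the nuclear receptor LXR alpha, and peptides from it are shown on MHC class II molecules to CD4+ T cells. The same cells can instead be driven by interferons to make chemokines such as Cxcl9 and Cxcl10, and they bind the Fc part of antibodies through Fc gamma receptors.

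CD45+ leukocytes were sorted from subcutaneous tumours of the mouse colon carcinoma line MC38 and sequenced as 1 multiplexed 10x Genomics 3' library, in which a hashtag antibody marked the cells of each of 6 mice. All mice carried human Fc gamma receptor genes (hFcgR mice), and tumours were taken 4 days after treatment with 2 injections of 100 µg of an hIgG1 antibody to mouse GITR. The groups were N297A, an agonist described as Fc-null, with 2 mice; GA-aFuc, an agonist with an enhanced Fc part, with 1 mouse; GITR/Syn GA-aFuc, a non-agonist with the enhanced Fc part, with 1 mouse; and Untreated, with 2 mice. The labels name PBS as the control injection where the cell table says Untreated, and give 3 mice per treatment for the whole study, so the library held part of them. How the human genes were placed in the mice was not given in the sources used here.

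Cluster 51 contributed 16 and 14 cells in the N297A mice, 12 in the GA-aFuc mouse, 19 in the GITR/Syn GA-aFuc mouse and 15 and 6 in the Untreated mice. The summed mouse-gene UMIs of the cluster were between 110887 and 280778 per mouse, against 9692923 to 11533931 for the other macrophages. Cells are not replicates, so UMIs were summed within each mouse and expressed as CPM, that is, scaled to the same total of mouse-gene UMIs in every sum. The median cell held 17180 ± 1294 UMIs in cluster 51 and 15188 ± 790 in the other macrophages (mean ± SD of the medians of 6 mice). Cells of cluster 51 were the deeper ones in 6 of 6 mice, with a ratio of 1.13 (two-sided exact sign-flip test, p = 0.03125, the smallest this design allows, and 0.0625 after adjustment over 2 measures). Hashtag UMIs were also higher, with a ratio of 1.15 in 5 of 6 mice (exact p = 0.0625). Mitochondrial genes supplied 2.02% and 1.93% of UMIs, and human genes 0.559% and 0.628%. The part of depth in the results that follow was not tested beyond leaving out cells of high depth. No doublet caller was run. In every cell of the cluster 1 hashtag held at least 91.3% of the hashtag UMIs, which limits doublets between mice but not within a mouse.

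The fixed macrophage markers were present in these cells. C1qa, a chain of the complement component C1q, averaged 6452 ± 652 CPM in cluster 51 and 5555 ± 409 CPM in the other macrophages (mean ± SD, n = 6 mice here and throughout). Csf1r, the receptor for the macrophage growth factor CSF-1, was at 475 ± 50.2 and 424 ± 30.5 CPM. Apoe, a lipid carrier, was at 10775 ± 3620 and 8594 ± 1798 CPM. After each cell was thinned to 5000 UMIs, all 81 cells deep enough held C1qa and Apoe, and 90.1% held Csf1r. The other macrophages held C1qa in 99.5%, Apoe in 98.95% and Csf1r in 84.8% of cells. CD8 T cells, taken as the level of free RNA, held C1qa in 41.6%, Apoe in 68.9% and Csf1r in 7.71%. A UMI of C1qa or Apoe in a cell therefore does not by itself mark a macrophage. Adgre1, which encodes the macrophage surface protein F4/80, went the other way: it was lower in cluster 51 in 6 of 6 mice, at 287 ± 65.7 CPM against 361 ± 32.5 CPM. Itgam, the integrin chain CD11b, was also lower in every mouse, at 152 ± 54.5 CPM against 273 ± 44.5 CPM. Cd163, Timd4, Vsig4, Lyve1 and Marco, genes of long-resident tissue macrophages, had no UMI in the cluster, and the other macrophages held at most 0.0688 CPM of any of them. Other genes linked with resident-like macrophages were present: Selenop, which encodes a selenium carrier, was at 388 ± 117 CPM against 244 ± 44.7 CPM and higher in 6 of 6 mice, though not in every mouse with TMM scaling. The other members of that list with at least 10 CPM on average lay on both sides between mice: Pf4 (326 and 392.5 CPM), Ccl8 (156 and 92.1), Mrc1 (140.3 and 128), Stab1 (119.6 and 98.4) and F13a1 (7.49 and 28.6).

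Markers of most other cell types were scarce. Monocyte genes lay on both sides: of 8 described, 1 was higher and 2 were lower in every mouse, with a median of -0.58. The list (13 genes) summed to 5297 CPM in cluster 51 and 4371 CPM in the other macrophages, higher in 5 of 6 mice. Ly6c2 was at 36.1 and 62.5 CPM, against 2227 CPM in monocytes. Ccr2 was at 52.4 and 65.9 CPM, against 431 CPM in monocytes. The summed markers were between 3.80 and 50.8 CPM in cluster 51 and between 9.33 and 17.5 CPM in the other macrophages for T cells (5 genes), and between 0 and 15.2 CPM against 3.17 to 5.78 CPM for NK cells (4 genes, of which Ncr1 and Klrb1c had no UMI). B cell markers (3 genes) reached 3.91 against 1.24 CPM, with Cd79a at 0. Tumour epithelial markers (4 genes) reached 3.91 against 0.454 CPM, with Epcam, Krt18 and Krt19 at 0. The neutrophil list (5 genes) was at 9.02 to 72.1 CPM against 29.3 to 43.3 CPM and consisted almost wholly of Csf3r, with Cxcr2 and Retnlg at 0. Fibroblast markers (4 genes) were at 3.91 to 36.1 against 12.5 to 15.6 CPM, endothelial markers (4 genes) at 35.8 to 173 against 103 to 159 CPM, nearly all from Pecam1, and mast cell markers (3 genes) at 0 to 10.2 against 1.75 to 3.55 CPM. Of the dendritic cell lists, Xcr1 of cDC1, Cd209a and Flt3 of cDC2 and Siglech and Ccr9 of pDC were at 0. The sums of those 3 lists came from genes that macrophages also carry, such as Cadm1 (464 and 331 CPM), Sirpa (325 and 264 CPM) and Bst2 (1732 and 1465 CPM). Markers of mregDC (4 genes) were at 0 to 28.5 against 3.45 to 6.81 CPM. The part of other cells in the differences was not tested.

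The genes that were higher in cluster 51 by the most encode an adhesion molecule, a nuclease and a sterol-sensing receptor, and those lower by the most were cell cycle and histone genes. A difference was taken within each mouse as log2(CPM + 10), which understates the change of low genes, and a gene was counted as called if the mean difference was at least 1 with every mouse on the same side. Since the clusters were made from the expression of these same cells, the differences are a description of what the cluster holds and carry no p-value. Of 7908 genes with at least 10 CPM on average, 4 were called higher (0.0506% of those described) and 104 were called lower (1.32%). Without the size threshold, 347 genes (4.39%) were higher and 632 (7.99%) lower in all 6 mice, so 35.4% of the one-sided genes were higher. With TMM scaling the same split was 191 higher and 925 lower, or 17.1%. The median over all genes was -0.05 and, with TMM scaling, -0.12.

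Vcam1, an adhesion molecule bound by leukocyte integrins, had 217 and 70.4 CPM in cluster 51 of the N297A mice, 289 in the GA-aFuc mouse, 167 in the GITR/Syn GA-aFuc mouse, and 91.4 and 45.1 in the Untreated mice. The other macrophages of those mice, in that order, had 68.2, 18.9, 45.0, 21.7, 43.1 and 17.5 CPM. The cluster was the higher side within every mouse, by 1.65 ± 0.68 on the log2 scale, but the 2 sets of values overlapped between mice. Vcam1 was not present in every cell: after thinning, 37.0% of cluster 51 cells (95% exact binomial interval 26.6 to 48.5%) held a UMI, against 9.52% of the other macrophages and 1.14% of CD8 T cells. Without thinning the shares were 48.8% and 17.6%, at median depths of 16648 UMIs in cluster 51, 15192 in the other macrophages and 8158 in CD8 T cells. Thinning left out 1, 115 and 116 cells of these groups, and intervals cover counting error only.

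Dnase1l3, a secreted nuclease that digests the DNA of dead cells, had 92.6 and 110 CPM in cluster 51 of the N297A mice, 223 in the GA-aFuc mouse, 114 in the GITR/Syn GA-aFuc mouse, and 223 and 117 in the Untreated mice. The other macrophages had 52.1, 38.8, 62.7, 39.4, 81.3 and 31.1 CPM in the same order. No mouse's cluster 51 value fell among these, and the mean difference was 1.33 ± 0.34. Of the thinned cells, 35.8% held Dnase1l3, against 15.6% of the other macrophages and 1.01% of CD8 T cells.

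Nr1h3 encodes LXR alpha, the oxysterol receptor that turns on cholesterol export genes. It had 49.9 and 78.3 CPM in cluster 51 of the N297A mice, 45.7 in the GA-aFuc mouse, 60.8 in the GITR/Syn GA-aFuc mouse, and 95.4 and 27.1 in the Untreated mice. The other macrophages had between 9.62 and 19.3 CPM. The groups did not overlap, and the difference was 1.32 ± 0.39. Of the thinned cells, 16.0% (8.83 to 25.9%) held Nr1h3, against 6.53% of the other macrophages and 0.379% of CD8 T cells. Without thinning the cluster held 86 UMIs of Nr1h3 in all, from 37 cells, so the values of single mice rest on few UMIs. All 3 genes were highest in cluster 51 among the 24 macrophage clusters, followed by 117 CPM of Vcam1 and 38.9 CPM of Nr1h3 in cluster 12 and 126 CPM of Dnase1l3 in cluster 6. Of the 7908 genes described, 261 were highest in cluster 51. The remaining call was Gm56663, a predicted gene with no name beyond that, at 400 ± 143 CPM against 174 ± 67.9 CPM (difference 1.16). Just under the threshold of 1 were Clec4n, a C-type lectin receptor for fungal mannans (0.996, printed 1.00 at 2 decimals), Cd63 (0.98) and Ms4a4a (0.96), a membrane protein of macrophages.

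**Figure D1:**
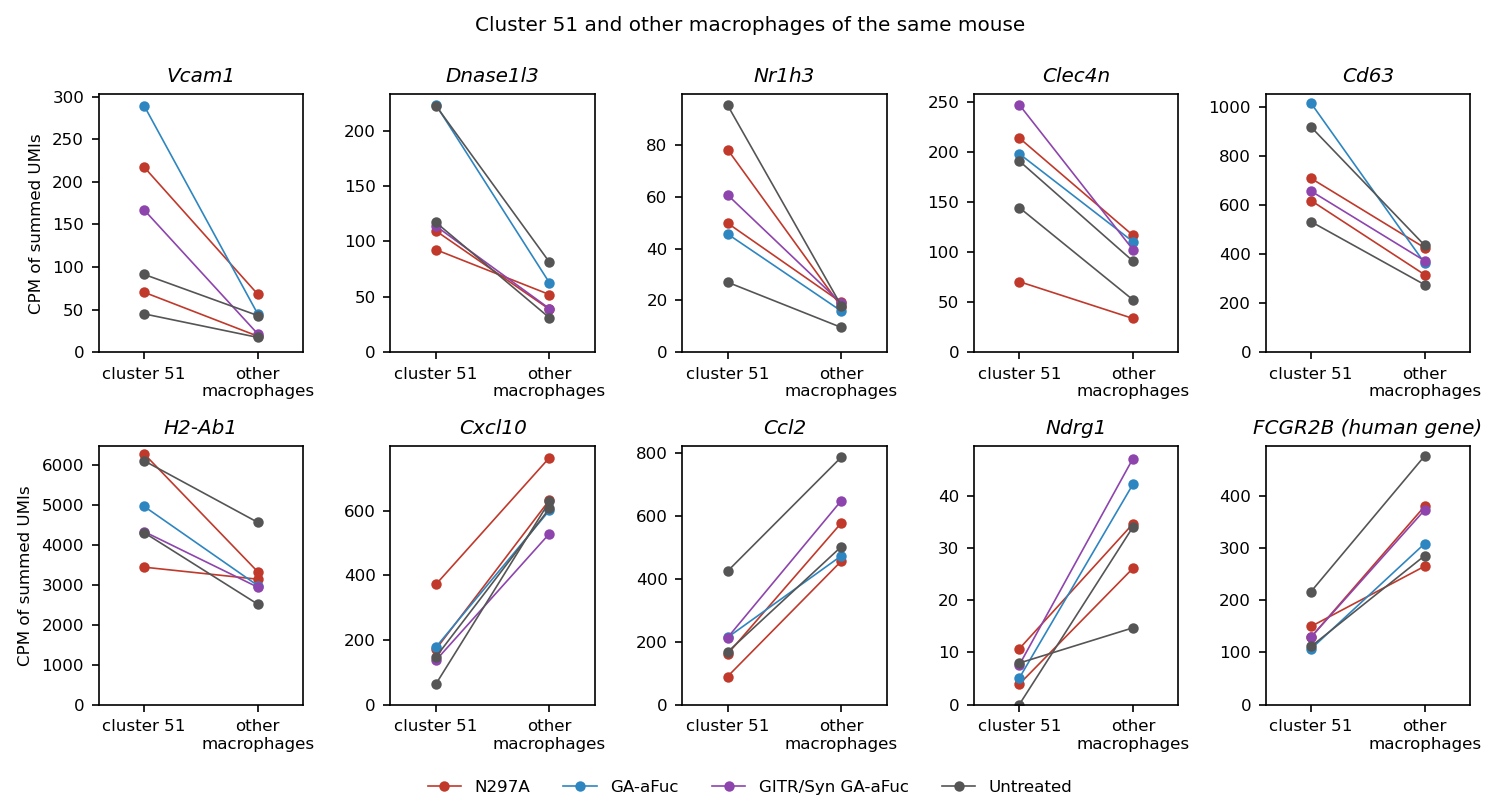
Each line joins 1 mouse's CPM in cluster 51 (left) to that in its other macrophages (right), with colours for treatments and axes from 0. Every line falls from cluster 51 for Vcam1, Dnase1l3, Nr1h3, Clec4n, Cd63 and H2-Ab1, and every line climbs for Cxcl10, Ccl2, Ndrg1 and the human gene FCGR2B.

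Genes of the lysosome were higher as a group, by small amounts. Of the 19 lysosome and cathepsin genes described, 12 were higher in all 6 mice and 1 was lower, where 4.39% and 7.99% of all genes were, and the median difference was 0.28. Cd63, a tetraspanin of late endosomes and lysosomes, had 709 and 618 CPM in cluster 51 of the N297A mice, 1015 in the GA-aFuc mouse, 657 in the GITR/Syn GA-aFuc mouse, and 918 and 532 in the Untreated mice, against 275 to 436 CPM in the other macrophages. The cathepsin gene Ctsb was at 2237 to 3512 CPM against 1263 to 1753 CPM (difference 0.80 ± 0.23). The groups overlapped for neither gene. Ctsz, a further cathepsin, averaged 1834 ± 249 CPM against 1138 ± 52.4 CPM and was highest in cluster 51 of the 24 macrophage clusters. Cluster 61 followed at 1766 CPM. Psap, whose product is cut into activators of lipid hydrolysis, differed by 0.53 ± 0.14 and Lipa, the lysosomal acid lipase, by 0.60 ± 0.16. The others higher in every mouse were Ctsc, Ctsd, Ctsh, Ctss, Lgmn, Hexa and Grn. With TMM scaling 8 of the 19 were higher in every mouse and the median was 0.20. The sum of the list was 24977 CPM in cluster 51 and 19030 CPM in the other macrophages, and was higher in 6 of 6 mice.

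CACGTG, the letters bound by the lysosomal gene regulator TFEB and by other factors, was searched on both strands of the 300-base RefSeq promoters (250 bases before to 50 after the start, build GRCm38.p6). It stood in 2 of the 12 promoters found for 10 of these 12 genes (16.7%), those of Ctsd and Lgmn, against 7.15% of 32851 promoters; Ctsb and Ctsh had no promoter in the table. The Ctsd promoter, chr7:142387778-142388077 on the minus strand, is printed 5′ to 3′ because it held the match at 2 places, in capitals, starting 245 and 98 bases before the start. A match is a description of the letters, and these data carry no measurement at promoters. Lysosome genes that were not higher in every mouse were not counted apart, so nothing is read from the comparison with all promoters.
Ctsd: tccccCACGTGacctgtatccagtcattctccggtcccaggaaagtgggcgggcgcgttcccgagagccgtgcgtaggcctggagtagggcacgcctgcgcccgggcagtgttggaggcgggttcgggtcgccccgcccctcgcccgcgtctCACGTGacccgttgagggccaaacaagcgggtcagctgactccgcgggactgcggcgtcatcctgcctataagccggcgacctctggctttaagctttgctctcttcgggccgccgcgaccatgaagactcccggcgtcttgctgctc

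Genes of lipid-associated macrophages were partly higher as well, on a list that shares Cd63 and Ctsd with the lysosome list. Of 13 genes of lipid-associated macrophages described, 6 were higher in all 6 mice and none was lower, with a median of 0.34. Lgals3, a galectin that binds damaged endolysosomes, had 1816 and 2090 CPM in cluster 51 of the N297A mice, 2974 in the GA-aFuc mouse, 2339 in the GITR/Syn GA-aFuc mouse, and 3183 and 2444 in the Untreated mice, against 1051 to 1811 CPM in the other macrophages. Fabp5, a fatty acid carrier, averaged 222 ± 139 CPM against 109 ± 49.2 CPM, with the groups overlapping between mice. Plin2, a coat protein of lipid droplets, was at 361 ± 33.0 and 269 ± 39.5 CPM. The others were Cd63, Ctsd and Tyrobp, the signalling adaptor of TREM2. Trem2 itself, the lipid receptor that names this state, was at 359 ± 91.5 and 326 ± 37.6 CPM and higher in 5 of 6 mice. Of 13 sterol genes, 3 were higher in every mouse: Nr1h3, its target Abca1, a cholesterol exporter (0.29 ± 0.22), and Npc1, which moves cholesterol out of lysosomes (0.62 ± 0.27). Idi1, of cholesterol synthesis, was lower in every mouse (-0.78 ± 0.49). The median of the sterol list was -0.13, below 0, so the list as a whole was not higher.

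MHC class II genes stood above the other macrophages but below the highest macrophage clusters. Of 10 genes described, 5 were higher in all 6 mice and none was lower, with a median of 0.35. H2-Ab1, a class II beta chain, had 6286 and 3444 CPM in cluster 51 of the N297A mice, 4969 in the GA-aFuc mouse, 4336 in the GITR/Syn GA-aFuc mouse, and 6112 and 4311 in the Untreated mice. The other macrophages had 3329, 3142, 2983, 2942, 4569 and 2516 CPM in the same order, so the groups overlapped between mice. Also higher in every mouse were H2-Aa (0.44), the invariant chain gene Cd74 (0.42), Ctss, which trims that chain, and the lysosomal thiol reductase gene Ifi30 (0.40). Ciita, the activator of class II genes, was at 43.8 ± 17.0 and 39.9 ± 12.9 CPM and higher in only 2 of 6 mice. The count of 5 was 3 with TMM scaling and 1 when the cycling clusters defined further on were left out of the comparison, with medians of 0.25 and 0.24.

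Oxidative stress genes of the NRF2 response showed 4 of 15 higher in every mouse and none lower, with a median of 0.29: Gsr, Prdx1 and the ferritin chains Ftl1 and Fth1. Ftl1 averaged 6790 ± 824 CPM against 4773 ± 640 CPM. Of 12 genes of the unfolded protein response, 2 were higher in every mouse, the chaperone genes Calr (0.51 ± 0.28) and Hspa5 (0.30 ± 0.15), and 1 was lower, the transcription factor gene Atf4 (-0.24 ± 0.16); with TMM scaling it was 1 each way. Calr, Clec7a, a beta-glucan receptor, and Cd80, a ligand for CD28, were also highest in cluster 51 of the 24 macrophage clusters. They were among 261 such genes of the 7908 described. Next came 910 CPM of Calr in cluster 61, and 314 CPM of Clec7a and 93.1 CPM of Cd80 in cluster 2. Clec7a was at 356 ± 143 CPM against 202 ± 50.3 CPM in the other macrophages, below the 712 CPM of monocytes and 698 CPM of cDC2. Cd80 was at 95.8 ± 27.99 CPM against 57.4 ± 16.1 CPM, below the 156 CPM of monocytes and 266 CPM of cDC2. Oxidative phosphorylation genes showed no shared direction, with 1 of 20 higher in every mouse and a median of 0.01 that was -0.09 with TMM scaling.

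**Figure D2:**
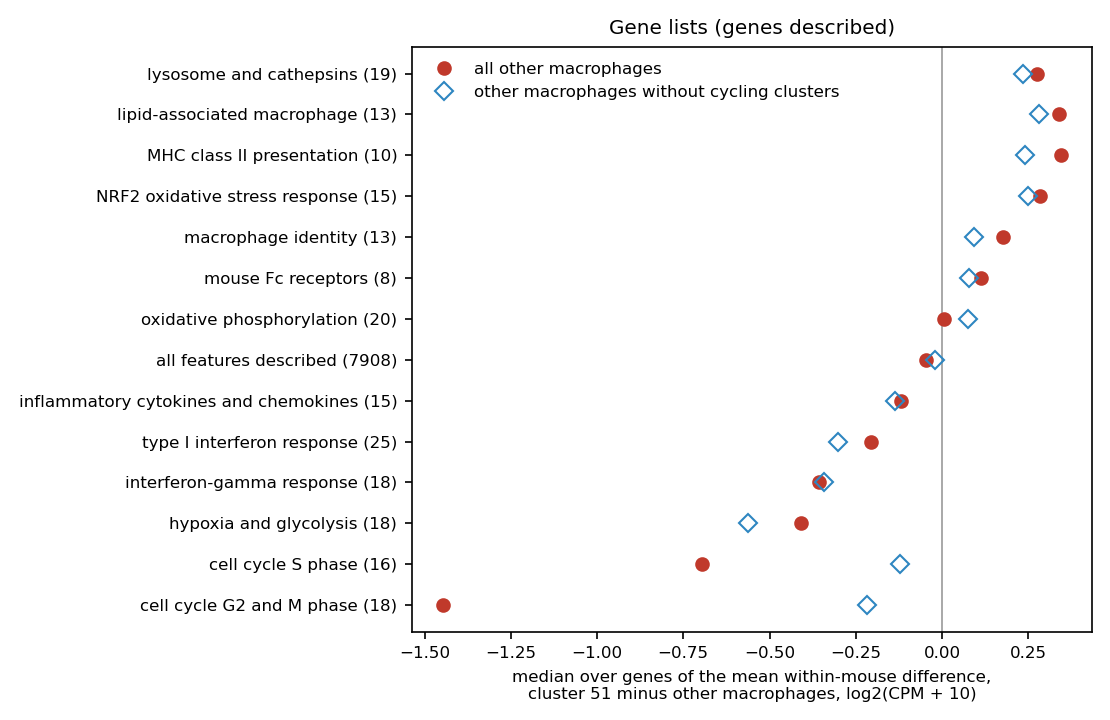
Median within-mouse difference of each gene list, cluster 51 minus other macrophages, on the log2(CPM + 10) scale, with all other macrophages (filled circles) and without the 7 cycling clusters (open diamonds); numbers after the names count the genes described in the comparison with all other macrophages. The lysosome, lipid, MHC class II and NRF2 lists lie between 0.23 and 0.35 in both, the interferon and hypoxia lists lie below 0 in both, and the cell cycle lists at -0.69 and -1.45 lie at -0.12 and -0.22 without the cycling clusters.

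Several interferon-induced genes and inflammatory chemokines were lower in cluster 51 than in the other macrophages as a whole. Of 25 genes of the type I interferon response described, 8 were lower in all 6 mice and none was higher, with a median of -0.21. Cxcl10, a chemokine for CXCR3+ lymphocytes, had 171 and 372 CPM in cluster 51 of the N297A mice, 178 in the GA-aFuc mouse, 137 in the GITR/Syn GA-aFuc mouse, and 147 and 63.1 in the Untreated mice. The other macrophages had 633, 765, 602, 529, 608 and 629 CPM in the same order. The groups did not overlap, and the mean difference was -1.92 ± 0.68. In thinned cells the share with Cxcl10 was 40.7% (29.9 to 52.2%) against 46.2%, with 19.5% in CD8 T cells, so the shares of cells did not separate at this depth. Rsad2 (viperin, -1.29 ± 0.84), Cmpk2 (-1.30), Mx2 (-1.11) and Usp18 (-1.06), all antiviral or feedback genes, were called lower too. Cluster 51 ranked 17 of the 24 macrophage clusters for Rsad2, 21 for Cxcl10, 21 for Cmpk2 and 24 for Mx2. Cluster 3 was the highest for each of them, at 1398, 2384, 216 and 97.8 CPM in that order. The part of that cluster in the differences was not tested. Ifit3 (-0.88), Mx1 (-0.61) and the RNA sensor gene Ifih1 (-0.56) were lower in every mouse by less than the threshold. Of 18 genes of the interferon-gamma response, 4 were lower in every mouse and none was higher: the GTPases Iigp1 (-1.05 ± 0.26) and Gbp5, the peptide transporter Tap1 and the feedback inhibitor Socs1. Cxcl9, the other CXCR3 ligand of this response, was at 1232 ± 863 CPM against 714 ± 237 CPM and higher in 4 of 6 mice.

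The core of the interferon-stimulated response element, GAAA and again GAAA with any 2 bases between them, was searched on both strands of the same promoters. It stood in 4 of the 5 promoters found (80.0%) for the 8 type I interferon genes lower in every mouse, against 3.44% of all 32851; Mx1, Mx2 and Usp18 had no promoter in the table. Those of Cxcl10 (chr5:92348840-92349139, minus strand), Rsad2 (chr12:26456403-26456702, minus strand) and Ifit3 (chr19:34583279-34583578, plus strand) are printed 5′ to 3′ as the genes of this group that differed most and had a match. Capitals mark the matches, which begin 213 bases before the start in Cxcl10, 120 before it in Rsad2 and 156 and 122 before it in Ifit3; in Rsad2 and Ifit3 they read as the reverse complement. The fourth, in Ifih1, lay after the start. All 8 genes came from a list of the interferon response, and its members that were not lower in every mouse were not counted apart. The comparison with all promoters therefore cannot tell a feature of the genes lower in these cells from one of the whole list, and nothing is read from it.
Cxcl10: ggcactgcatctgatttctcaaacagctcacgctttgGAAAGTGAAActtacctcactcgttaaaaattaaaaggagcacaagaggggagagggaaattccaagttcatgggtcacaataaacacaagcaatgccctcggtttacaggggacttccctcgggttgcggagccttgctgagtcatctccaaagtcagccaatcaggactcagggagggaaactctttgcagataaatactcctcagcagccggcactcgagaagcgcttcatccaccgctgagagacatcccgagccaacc
Rsad2: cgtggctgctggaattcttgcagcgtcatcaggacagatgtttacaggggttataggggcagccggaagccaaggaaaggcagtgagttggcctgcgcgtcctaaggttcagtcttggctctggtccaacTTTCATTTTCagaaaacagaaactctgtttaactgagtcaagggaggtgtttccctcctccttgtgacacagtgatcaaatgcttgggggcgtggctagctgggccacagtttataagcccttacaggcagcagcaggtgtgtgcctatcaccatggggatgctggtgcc
Ifit3: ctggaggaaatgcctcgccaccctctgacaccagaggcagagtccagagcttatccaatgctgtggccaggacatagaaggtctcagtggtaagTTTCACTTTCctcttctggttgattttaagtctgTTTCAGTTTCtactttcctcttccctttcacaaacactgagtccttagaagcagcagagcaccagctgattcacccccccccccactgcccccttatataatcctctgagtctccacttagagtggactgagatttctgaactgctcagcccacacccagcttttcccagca

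Monocyte-attracting chemokines followed the interferon genes. Of 15 inflammatory cytokine and chemokine genes, 5 were lower in every mouse (Ccl2, Ccl3, Ccl4, Ccl7 and Cxcl2) and 2 were higher. Ccl2, the main ligand of CCR2 on monocytes, had 89.0 and 160 CPM in cluster 51 of the N297A mice, 213 in the GA-aFuc mouse, 213 in the GITR/Syn GA-aFuc mouse, and 167 and 424 in the Untreated mice, against 455 to 786 CPM in the other macrophages. The groups did not overlap, and the difference was -1.52 ± 0.48. In thinned cells 43.2% against 65.3% held Ccl2, with 10.999% in CD8 T cells. The 2 higher genes were Il1rn, the antagonist of interleukin 1 (0.68 ± 0.23), and Cxcl16, a ligand for CXCR6 (0.26 ± 0.18). Il18bp, which neutralises interleukin 18 and is on none of the lists of this paragraph, was at 165 ± 46.5 CPM against 91.3 ± 19.8 CPM.

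All 18 hypoxia and glycolysis genes described had a mean difference below 0, with a median of -0.41, and 6 of them were lower in every mouse. Ndrg1, a gene switched on at low oxygen, had 10.7 and 3.91 CPM in cluster 51 of the N297A mice, 5.08 in the GA-aFuc mouse, 7.59 in the GITR/Syn GA-aFuc mouse, and 7.95 and 0 in the Untreated mice. The other macrophages had 14.7 to 47.1 CPM, and the difference was -1.43 ± 0.59. The rest were the glucose transporter gene Slc2a1 (-0.58), the lactate exporter gene Slc16a3 (-0.64), the glycolytic enzyme genes Pfkl (-0.50) and Pgk1 (-0.61), and Ero1a (-0.66), an oxidase of the endoplasmic reticulum. Ndrg1 was the one that passed the threshold of 1. Lower than the other macrophages as a whole did not always mean lower than most clusters. Cluster 51 ranked 23 of the 24 macrophage clusters for Ndrg1 but 8 for Ero1a. Both genes were highest in cluster 9, at 290 and 701 CPM. The part of that cluster in the differences was not tested. With TMM scaling 10 of the 18 were lower in every mouse.

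Cell cycle and histone genes made up much of what was lower. Of the 104 genes called lower, 20 were on the cell cycle lists and 8 were histone genes, out of 15 histone genes described. Of 18 genes of the G2 and M phases, 16 were called lower, and of 16 S phase genes 14 were lower in every mouse. Top2a, the topoisomerase that untangles replicated DNA, had 21.4 and 31.3 CPM in cluster 51 of the N297A mice, 10.2 in the GA-aFuc mouse, 7.59 in the GITR/Syn GA-aFuc mouse, and 23.8 and 27.1 in the Untreated mice, against 101 to 202 CPM in the other macrophages. The linker histone gene H1f5, with the lowest difference of all described genes (-4.02 ± 0.54), averaged 3.25 ± 4.57 CPM against 199 ± 36.7 CPM. The comparison was therefore repeated without the 7 clusters (4, 13, 17, 24, 45, 53 and 56) whose summed cell cycle CPM was over 2 times that of cluster 51, an alternative chosen after the data were seen.

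Without those clusters, 3 of 7805 genes were called higher (0.0384%) and 39 lower (0.5%), and 320 (4.1%) and 439 (5.62%) were higher or lower in every mouse. The 3 were Vcam1 (1.501), Nr1h3 (1.24) and Dnase1l3 (1.22), all called before as well, and 26 of the 39 were among the 104. Cxcl10 (-1.76), Ccl2 (-1.44) and Ndrg1 (-1.66) stayed called. No S phase or G2 and M phase gene was lower in every mouse in that comparison, of 11 and 8 described, and since the clusters left out were chosen by the sum of these genes, nothing is read from that. The type I interferon count was again 8 of 25, and the hypoxia count was 9 of 18. Of the lysosome genes 10 of 19 and of the lipid genes 5 of 13 were higher in every mouse.

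The human inhibitory Fc receptor gene was lower in cluster 51 than in any other macrophage cluster. FCGR2B, the receptor that dampens activation by immune complexes, had 150 and 129 CPM in cluster 51 of the N297A mice, 107 in the GA-aFuc mouse, 129 in the GITR/Syn GA-aFuc mouse, and 111 and 216 in the Untreated mice. The other macrophages had 265, 380, 308, 373, 285 and 476 CPM in the same order. The groups did not overlap, the difference was -1.26 ± 0.28, and CD8 T cells, at 56.2 CPM, marked the level of free RNA. Cluster 12 was the next lowest of the 24 clusters, at 167 CPM. Of the 7908 genes described, 157 were lowest in cluster 51. The other human Fc gamma receptor genes were not shifted in every mouse: FCGR2A, an activating receptor, was at 1089 ± 182 and 1061 ± 152 CPM, and FCGR3B was at 3326 ± 533 and 3618 ± 278 CPM. FCGR3A was at 214 ± 50.3 and 238 ± 19.0 CPM, and FCGR1A, the high-affinity receptor, at 211 ± 56.9 and 222 ± 56.7 CPM.

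Among the 14 human features described, 3 were called, all lower: FCGR2B and the Fc receptor-like genes FCRLB and FCRLA, which were singled out after their values were seen and lie beside FCGR2B in the human genome. FCRLB was at 46.3 ± 26.1 CPM against 161 ± 60.6 CPM (difference -1.67), and FCRLA had UMIs in cluster 51 of 1 mouse against 9.90 to 50.7 CPM in the other macrophages of every mouse. The mouse gene Fcgr2b went the opposite way, at 610 ± 129 CPM against 480 ± 39.3 CPM and higher in 6 of 6 mice (0.32 ± 0.25). It was not higher in every mouse with TMM scaling, under which none of the 8 mouse Fc receptor genes was. Of the mouse activating receptors, Fcgr1 and Fcgr4 had no UMI in cluster 51 and Fcgr3 had 12.8 CPM, while the shared signalling chain Fcer1g had 5081 ± 588 CPM against 4376 ± 449 CPM. Without the cycling clusters the FCGR2B difference was -1.28.

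The 3 macrophage clusters most like cluster 51 across 7956 genes were clusters 14, 30 and 12, each with a Pearson correlation of 0.976. This correlation is across genes, which are not replicates, and the clusters share a library. Cluster 14 was the MHC-rich one: H2-Ab1 averaged 4910 CPM in cluster 51 and 7372 CPM in cluster 14 (difference -0.61, lower in 6 of 6 mice), while Vcam1 (1.93), Fabp5 (2.47) and Ctsb (1.08) were higher in cluster 51 in 6 of 6. Dnase1l3 was at 147 CPM in cluster 51 and 114 CPM in cluster 14 (0.31, higher in 5 of 6). Against cluster 30, Dnase1l3 (2.54), Cxcl9 (2.05) and H2-Ab1 (1.57) were higher in every mouse. Cluster 12 was the nearest in Vcam1 and FCGR2B. Vcam1 was at 147 and 117 CPM and higher in cluster 51 in only 2 of 6 mice, and FCGR2B was at 140 and 167 CPM and lower in 4 of 6. Dnase1l3 (2.05), H2-Ab1 (2.07) and Cxcl9 (1.74) were higher in cluster 51 than in cluster 12 in 6 of 6 mice, and Apoe (-1.01), Ccl2 (-1.54) and Fabp5 (-1.52) were lower in 6 of 6. The low values of Ccl2, Rsad2 and Cxcl10 in cluster 51 were partly shared by these clusters. Ccl2 differed by 0.26 from cluster 14 (higher in 4 of 6 mice) and by -0.32 from cluster 30 (3 mice each way). Rsad2 differed by 0.33 from cluster 14 (higher in 5 of 6), -0.75 from cluster 30 (lower in 5 of 6) and -0.90 from cluster 12 (lower in 4 of 6). Cxcl10 was below clusters 14 (-0.47), 30 (-0.74) and 12 (-0.79), in 5, 5 and 4 of 6 mice. Low cell cycle values were shared by these clusters as well. The summed cell cycle lists were at 842 CPM in cluster 51, 861 in cluster 14, 707 in cluster 30 and 828 in cluster 12. The summed MHC class II list was 29593 CPM in cluster 51, 44197 in cluster 14, 15283 in cluster 30 and 12282 in cluster 12. The summed lysosome list was 24977, 19808, 22616 and 27964 CPM in the same order. Cluster 51 thus lay between clusters 12 and 30 in its lysosome sum and between clusters 14 and 30 in its MHC class II sum.

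**Figure D3:**
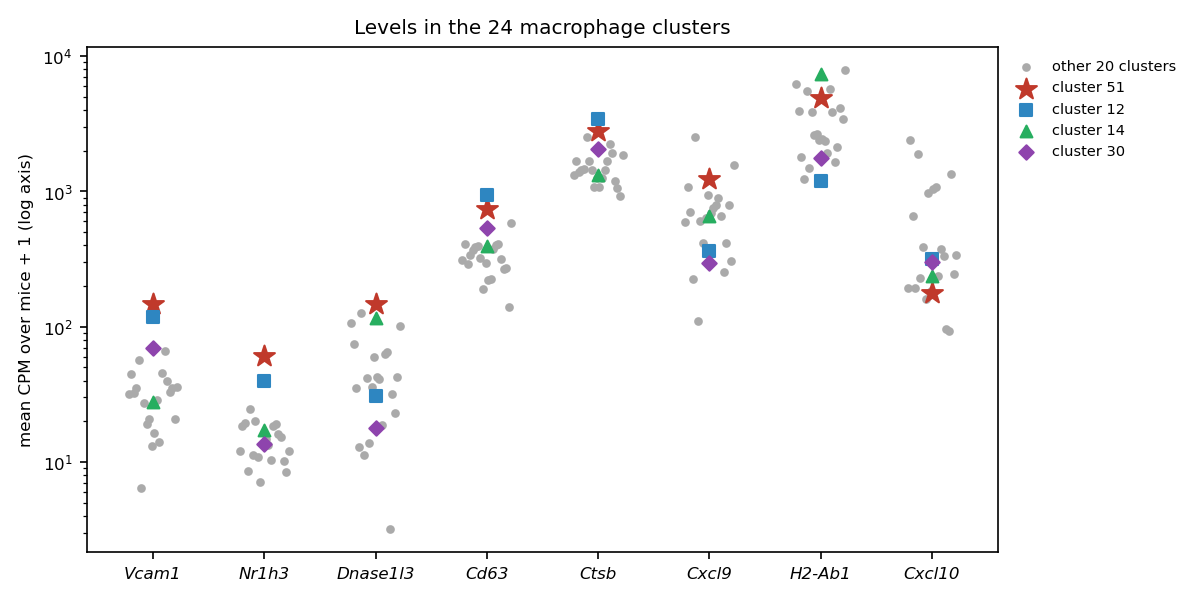
Mean CPM over mice plus 1, on a log axis, of 8 genes in the 24 macrophage clusters; cluster 51 is a star, clusters 12, 14 and 30 have their own symbols and the remaining clusters are grey. Cluster 51 is the highest point for Vcam1 (147 CPM), Nr1h3 (59.5 CPM) and Dnase1l3 (147 CPM), lies near cluster 12 for Cd63 and Ctsb, and lies between clusters 14 and 30 for H2-Ab1.

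The share of macrophages in cluster 51 was compared between treatments. It was 2.61% (95% exact binomial interval 1.499 to 4.20%) and 2.01% (1.10 to 3.34%) in the N297A mice, 1.58% (0.817 to 2.74%) in the GA-aFuc mouse, 2.66% (1.61 to 4.13%) in the GITR/Syn GA-aFuc mouse, and 2.38% (1.34 to 3.90%) and 0.870% (0.320 to 1.88%) in the Untreated mice. The lowest and the highest share of the 6 mice both came with intervals that overlapped those of mice of other treatments. The N297A mean of 2.31% exceeded the Untreated mean of 1.63% by 0.681 percentage points (two-sided exact permutation test, p = 0.667, where 2 against 2 mice cannot go below 0.333). The mice given either Fc-enhanced antibody averaged 2.12% and the others 1.97%, a difference of 0.153 points (exact p = 0.867, smallest possible 0.0667). Without the Untreated mouse of 6 cells the differences turned to -0.0768 and -0.213 points, and in table entries outside the library N297A was also below Untreated, at 1.06% against 1.70%. Without the GITR/Syn GA-aFuc mouse the Fc-enhanced difference was -0.391. Both differences were smaller than the gap between the Untreated mice, and neither p fell under 0.05 after adjustment over the 2 comparisons (0.867 for both). With these numbers of mice neither test could give a p under 0.05 for a share difference of any size, so they decide nothing.

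**Figure D4:**
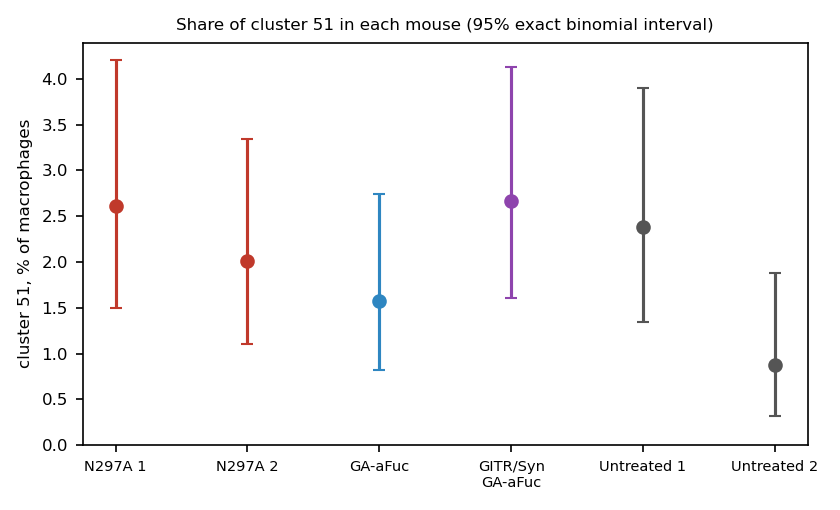
Share of each mouse's macrophages that belonged to cluster 51, in percent, with 95% exact binomial intervals as bars and 1 point per mouse. The shares run from 0.870% in an Untreated mouse to 2.66% in the GITR/Syn GA-aFuc mouse, and the intervals of the treatments overlap.

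Gene expression within the cluster was then compared between treatments, which asks whether the antibodies changed these cells. The fit used edgeR's quasi-likelihood test on summed counts with Benjamini-Hochberg adjustment over 5422 genes, and took the 5 mice with at least 10 cells. This dropped the Untreated mouse with 6 cells and left 1 residual degree of freedom, so groups of 1 mouse were taken to vary as the N297A pair does. The 3 comparisons with Untreated share that 1 Untreated mouse. Few genes passed an adjusted p of 0.05: 3 (0.0553%) for N297A, 1 (0.0184%) for GA-aFuc and 3 (0.0553%) for GITR/Syn GA-aFuc, each against Untreated, and 5 (0.0922%) for GA-aFuc against GITR/Syn GA-aFuc. At an unadjusted p under 0.05 there were 185 (3.41%), 221 (4.08%), 220 (4.06%) and 234 (4.32%). DESeq2 called 0 genes in all 4 comparisons, with 6, 5, 6 and 6 at an unadjusted p under 0.05, and limma-voom called 1, 3, 3 and 3.

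With N297A, by edgeR's test, 1 chemokine gene rose and another fell against Untreated; of the 3 calls limma-voom kept the fall of Ccl4 alone (adjusted p = 0.00616, against 0.161 for Cxcl9 and 0.252 for Zdhhc14). Cxcl9 had 2839 and 1444 CPM in the N297A mice, against 600 CPM in the Untreated mouse of the fit and 1208 CPM in the dropped one (log2 change 1.86, SE 0.26, adjusted p = 2.56e-05). The N297A values lay above both Untreated values. In all 6 mice the change was 1.29 (adjusted p = 0.00203). Cxcl9 was the only 1 of 17 interferon-gamma response genes tested that passed. Ccl4, an inflammatory chemokine gene, had 142 and 360 CPM in the N297A mice, against 644 CPM and, in the dropped Untreated mouse, 280 CPM (log2 change -1.34, SE 0.31, adjusted p = 0.0412). With the dropped mouse the groups overlapped and the change was -0.94 (adjusted p = 0.256). Among 14 cytokine and chemokine genes Ccl4 was the only one past the threshold.

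Zdhhc14, which encodes an enzyme that attaches palmitate to proteins, was higher with both N297A and GA-aFuc. It had 367 and 149 CPM in the N297A mice, 330 in the GA-aFuc mouse and 239 in the GITR/Syn GA-aFuc mouse, against 71.5 and 72.1 CPM in the Untreated mice. All 4 treated mice lay above both Untreated mice. The log2 change was 1.88 (SE 0.44, adjusted p = 0.0412) for N297A and 2.20 (SE 0.49, adjusted p = 0.0357) for GA-aFuc. With all 6 mice it was 1.86 (adjusted p = 0.00203), 2.20 (0.000852) and, for GITR/Syn GA-aFuc, 1.72 (0.0305). By limma-voom the GA-aFuc change passed as well (adjusted p = 0.0358). The other macrophages of the same mice had 204, 89.5, 164 and 131 CPM in the treated mice, in the order above, and 105 and 74.6 CPM in the Untreated mice. Zdhhc14 was not among the genes whose change in cluster 51 passed the test of a difference from the change in the other macrophages.

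GITR/Syn GA-aFuc against Untreated gave Hmox1, Gbp2b and Cxcl14. Gbp2b, an interferon-gamma-induced GTPase, had 19.0 CPM (5 UMIs) in the GITR/Syn GA-aFuc mouse, against 151 and 90.2 CPM in the Untreated mice (log2 change -2.95, adjusted p = 0.0247 by edgeR). Cxcl14, a chemokine of epithelia, had 190 CPM against 31.8 and 36.1 CPM (log2 change 2.57, adjusted p = 0.0363). Hmox1, heme oxygenase, had 695 CPM against 95.4 CPM and, in the dropped mouse, 604 CPM (log2 change 2.87, adjusted p = 1.59e-06), but 161 of its 183 UMIs in the GITR/Syn GA-aFuc mouse came from 1 cell. Without the top cell of each mouse the change was 0.50 (adjusted p = 0.990). Limma-voom called Hmox1 but neither Gbp2b (adjusted p = 0.989) nor Cxcl14 (adjusted p = 0.247).

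The 2 Fc-enhanced antibodies, which differ in agonism, were compared with 1 mouse each. Lyz2, lysozyme of myeloid cells, had 1898 CPM in the GA-aFuc mouse and 4070 CPM in the GITR/Syn GA-aFuc mouse (log2 change -1.11, SE 0.20, adjusted p = 0.000105). The monocyte receptor gene Ccr2 had 10.2 and 140 CPM, from 2 and 37 UMIs (-3.74, adjusted p = 0.0103), and its ligand gene Ccl7 had 127 and 547 CPM (-2.11, adjusted p = 0.0272). Gbp2b had 142 and 19.0 CPM (2.86, adjusted p = 0.0318). Hmox1 was the remaining call, at -2.58, which turned to 0.11 without the top cell of each mouse. Of these 5, limma-voom called Lyz2, Ccl7 and Hmox1, and gave an adjusted p of 0.997 for both Ccr2 and Gbp2b. With all 6 mice the Lyz2 change was -1.09 (adjusted p = 0.243). A trait of either mouse cannot be told apart from its antibody. Uty, a gene of the Y chromosome, had 0 CPM in cluster 51 of the GA-aFuc mouse, the first N297A mouse and the Untreated mouse of the fit. It had 114 CPM in the GITR/Syn GA-aFuc mouse, 66.5 in the second N297A mouse and 36.1 in the dropped Untreated mouse. Sex was not a term of the fits. Its part in this comparison and in those with Untreated was not tested.

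**Figure D5:**
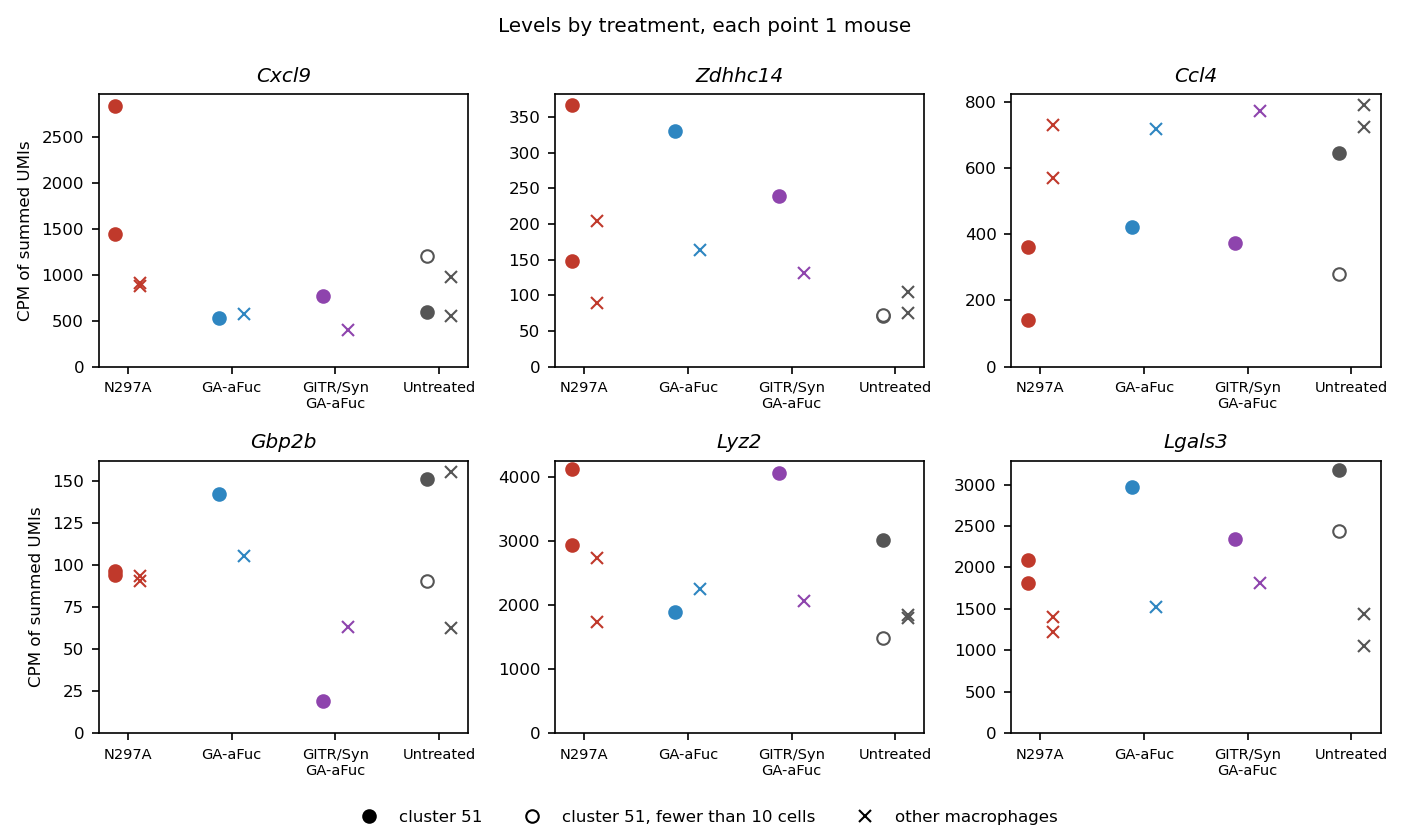
CPM of 6 genes by treatment, each point 1 mouse: filled circles for cluster 51, an open circle for the Untreated mouse with fewer than 10 cells and crosses for the other macrophages. Zdhhc14 in cluster 51 lies at 149 to 367 CPM in the treated mice and near 72 CPM in the Untreated mice; for Cxcl9 and Lgals3 the circles and crosses follow different orders across treatments.

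Few changes within cluster 51 differed from those in the other macrophages of the same mice. The interaction of treatment and cluster, tested with edgeR over 6530 genes with mouse as a term, passed an adjusted p of 0.05 for 1 gene (0.0153%) with N297A, 2 (0.0306%) with GA-aFuc and 4 (0.0613%) with GITR/Syn GA-aFuc, each against Untreated, and for 1 (0.0153%) between GA-aFuc and GITR/Syn GA-aFuc. Lgals3 passed with both N297A (-0.999, adjusted p = 0.0426) and GITR/Syn GA-aFuc (-1.22, adjusted p = 0.00511). Its cluster 51 values were 1816 and 2090 CPM in the N297A mice and 2339 in the GITR/Syn GA-aFuc mouse, against 3183 and 2444 in the Untreated mice, while the other macrophages had 1403, 1220 and 1811 against 1051 and 1438 CPM. In cluster 51 the N297A and GITR/Syn GA-aFuc mice lay below both Untreated mice, while the GA-aFuc mouse, at 2974 CPM, lay between them. In the other macrophages the N297A and Untreated values overlapped, and the GITR/Syn GA-aFuc value lay above both. Mt1, a metallothionein, had 220 CPM in cluster 51 of the GITR/Syn GA-aFuc mouse, against 405 and 776 in the Untreated mice, and 746 CPM in the other macrophages against 341 and 475 (interaction -2.002, adjusted p = 0.00511). Lyz2 had the difference between the Fc-enhanced antibodies in cluster 51 but not in the other macrophages, at 2255 and 2071 CPM there (interaction -1.20, adjusted p = 0.0115). With all 6 mice Mt1, Spp1 and Lgals3 for GITR/Syn GA-aFuc and Lyz2 stayed past the threshold, while 4 calls were lost: Lgals3 for N297A (-0.63, adjusted p = 0.188), Arg1 (adjusted p = 0.982) and Ccl5 (0.856) for GA-aFuc, and Ccl5 for GITR/Syn GA-aFuc (0.995).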

How the data were processed

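Gene and hashtag counts (UMIs per barcode) were deposited by the authors as an unfiltered matrix of 2965363 barcodes, 33696 mouse and 38606 human genes and 6 hashtags, made with Cell Ranger 9.0.0 per the file headers and with GRCh38 and GRCm39 per the submitters' processing notes. Cluster numbers and cell types are other values deposited by the authors in a cell table; the sources used here do not say how cells were filtered, clustered and demultiplexed. Of 19210 table entries, 8767 had at least 1000 mouse-gene UMIs here; of these, 33 with a top hashtag of some other treatment and 18 whose barcode occurred more than once were dropped, none of them in cluster 51. A cell's mouse is its top hashtag, and each hashtag was taken as 1 mouse. The same mouse supplies both sides of the comparison of cluster 51 with the other macrophages, so that comparison is paired by animal.

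UMIs were summed per mouse with Python 3.11.15, numpy 2.4.6, pandas 2.3.3 and scipy 1.17.1. Genes with a mean of at least 10 CPM over both sides were described with a pseudocount of 10 CPM. Treatments were tested on the summed counts with edgeR 4.0.16 (limma 3.58.1, R 4.3.3; TMM, filterByExpr, robust quasi-likelihood test, Benjamini-Hochberg), in mice with at least 10 cells, and with limma-voom and DESeq2 1.42.0 as alternatives. The procedures were checked on simulated data. Whether hashtags mark separately raised animals is not stated beyond the labels' mouse numbers, and the p-values measure the spread between these samples.

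Named genes were up to 20 called genes per direction with at least 50 CPM on the higher side and up to 4 members of each gene list by size of difference; for treatments, up to 10 genes past 0.05 per direction. Other members of a list are named as those on 1 side in every mouse, and Gm56663, Clec4n and Ms4a4a as the genes at the threshold. Members, gene lists and comparisons were chosen with earlier results of these data known. Promoters were matched by symbol to RefSeq tables of GRCm38.p6, another build than the counts', so their coordinates are used with no value from the files. Some members of the lists are counted there but not reported here by name.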

Additional observations from a re-analysis of the deposited data

Results flagged for a closer look

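Of 136 named genes, 8 had 1 mouse whose within-mouse difference (cluster 51 minus other macrophages, log2) stood apart from the other 5 by Dixon's test at the 95% level, which chance gives in about 1 group in 20. In 5 of them the mouse was the Untreated mouse with 6 cells of the cluster: Gbp5 at -1.72, Prdx1 at 1.83, Csf3r at -1.02, Nfkbiz at 0.087 and Adgre1 at -0.95. In that mouse 1 cell held 232 of the cluster's 1695 Prdx1 UMIs. The other Untreated mouse stood apart for Hspa1b at 0.81, where 1 cell held 7 of 9 UMIs, and for Tnfsf9 at 0.54. The GA-aFuc mouse stood apart for Top2a at -3.17.

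For 4 of the 136 named genes both N297A mice lay on one side of 0 and both Untreated mice on the other. With 2 mice a side such a split also arises by chance, so nothing is read from this count. The N297A mean minus the Untreated mean of the cluster difference was -0.45 for the human gene FCGR3A, 1.02 for Flt1, 1.05 for Pvr and 0.40 for Ccr1. These differences between treatments were not tested.

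The change with treatment in cluster 51 differed from that in the other macrophages by edgeR's interaction test for 8 genes or comparisons. Against Untreated these were Lgals3 with N297A (-0.999), Arg1 (5.23, adjusted p = 0.00462) and Ccl5 (3.03, adjusted p = 6.71e-08) with GA-aFuc, and Spp1 (-2.94, adjusted p = 0.0156), Mt1 (-2.002), Ccl5 (2.12, adjusted p = 0.00033) and Lgals3 (-1.22) with GITR/Syn GA-aFuc. Between GA-aFuc and GITR/Syn GA-aFuc it was Lyz2 (-1.20). With all 6 mice the calls of Lgals3 with N297A, Arg1, and Ccl5 in both comparisons were lost, and no gene passed for GA-aFuc (smallest adjusted p = 0.0596). For Ccl5, 334 of 520 UMIs in the GA-aFuc mouse and 256 of 415 in the GITR/Syn GA-aFuc mouse came from 1 cell. For Arg1, 69 of 85 UMIs in the GA-aFuc mouse came from 1 cell, and the Untreated mouse of the fit held 1 UMI. The part of these cells in the interaction results was not tested. For Spp1 the cluster held 12 UMIs in the GITR/Syn GA-aFuc mouse, against 31 in the Untreated mouse, 22 of them in 1 cell.

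The deposited cell table also lists macrophages whose barcodes are not in this library with enough UMIs. Among those 5708 entries 80 were in cluster 51, or 1.402% (95% exact binomial interval 1.11 to 1.74%), against 2.00% (1.59 to 2.47%) in this library. By treatment the shares outside the library were 1.06% for N297A, 1.04% for GA-aFuc, 1.72% for GITR/Syn GA-aFuc and 1.70% for Untreated. Their expression was not analysed here.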

How the results depend on the processing

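Against the other macrophages, 4 genes were called higher and 104 lower, and 347 and 632 were higher or lower in every mouse. With a pseudocount of 5 CPM, 8 were called higher, and with 20 CPM, 55 were called lower. With no filter on low values 3388 genes were lower in every mouse, and TMM scaling left 191 higher in every mouse. Without the pairing (no replicate block), where the groups must not overlap between mice, 2 genes were called higher, and 121 and 287 lay wholly above or below. Without the cycling clusters 39 were called lower. Leaving out each mouse in turn gave 5 to 8 called higher and 104 to 123 called lower, with 458 to 542 and 765 to 815 genes on 1 side in every remaining mouse; the 542 came without the Untreated mouse of 6 cells. Of 2312 values of named genes, 2277 moved by less than 1 SD, 34 by more, and Rrm2 reversed, to 0.16 without the cycling clusters; the cause was not tested.

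Within the cluster the treatment calls (3 for N297A, 1 for GA-aFuc and 3 for GITR/Syn GA-aFuc, each against Untreated, and 5 between the Fc-enhanced antibodies) rest on 5 mice. DESeq2 gave 0, 0, 0 and 0, and limma-voom 1, 3, 3 and 3. With no filter beyond 1 UMI, 4 genes passed for GA-aFuc and 11 for GITR/Syn GA-aFuc. With the 6-cell Untreated mouse added, 9, 14 and 3 passed for GA-aFuc, GITR/Syn GA-aFuc and the last comparison. Leaving out 1 mouse from the 5 gave 4 and 4 for N297A, 1 for GA-aFuc, 3 for GITR/Syn GA-aFuc and 5 for the last comparison. Leaving out 1 from the 6 gave 2 to 15 for N297A (13 without its second mouse, 15 without the Untreated mouse of 15 cells), 7 to 17 for GA-aFuc (17 without that Untreated mouse), 13 to 17 for GITR/Syn GA-aFuc and 4 to 5 for the last. The fit on 5 mice had no value without either N297A mouse, since no residual degree of freedom was left, or where a compared group was emptied. Hmox1 between the Fc-enhanced antibodies reversed to 0.11 without the top cell, which held most of its UMIs. In the same setting 6 other treatment calls were lost, among them Hmox1 for GITR/Syn GA-aFuc against Untreated, and 5 stayed. In the interaction test, 6 mice gave 2, 0, 8 and 3 genes.

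The N297A share difference of 0.681 points ran from -0.0768 without the 6-cell Untreated mouse to 1.44 without the other, and that of the Fc-enhanced antibodies (0.153) from -0.391 without the GITR/Syn GA-aFuc mouse to 0.697 without the GA-aFuc mouse, with -0.213 without the 6-cell Untreated mouse. With 6 to 19 cells a mouse, genes near the floor of 10 CPM rest on few UMIs.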

Other observations

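Extracellular matrix and tissue-remodelling genes, not described above, were partly higher in cluster 51. Of 10 matrix and protease genes, 4 were higher in every mouse and 2 were lower, with a median difference of 0.32. Timp2, an inhibitor of metalloproteases, averaged 196 ± 28.5 CPM in cluster 51 and 126 ± 10.6 CPM in the other macrophages (SD, n = 6 mice). Mmp13, a collagenase, was at 101 ± 60.1 and 49.0 ± 27.9 CPM and higher in 5 of 6 mice. Mmp12, the macrophage elastase, was lower, at 17.2 ± 36.4 against 76.4 ± 53.8 CPM, with 18 of its 21 UMIs in 1 cell. Cluster 51 still ranked 10 of the 24 macrophage clusters for Mmp12. Cluster 9, at 1140 CPM, and cluster 39, at 421 CPM, were the highest, and their part in the difference was not tested. Acp5, the acid phosphatase known from osteoclasts, was at 469 ± 128 CPM against 275 ± 34.3 CPM and higher in 6 of 6 mice. Mertk, a receptor for apoptotic cells, was at 190 ± 76.8 and 120 ± 27.2 CPM and higher in 5 of 6.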
